A study of Homo sapiens with 6 samples.

Results

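The libraries numbered 1 were compared with those numbered 4 and 5 in HEK293 cells (embryonic kidney cells of human origin) that stably express either of 2 altered forms of tensin-2 (TNS2). Y483E carries glutamate and Y483F phenylalanine in place of the same tyrosine. Each line gave 3 RNA sequencing libraries, numbered 1, 4 and 5, which the labels also call biological replicates 1, 2 and 3. The comparison therefore set 2 libraries (1 per line) against 4 (2 per line), and it used all 6 libraries of the study with the line as a term of the model. No treatment, day or culture is tied to the numbers in the labels, so what separates number 1 from 4 and 5 is not known. Each form of TNS2 was represented by 1 stable line, for which the labels give neither the clone nor the level of the altered form. The authors' table lists 58735 genes, and the 12833 with a mean of at least 1 FPKM (fragments scaled to transcript length and library size) were tested.

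The leading genes include members of signalling and metabolic pathways. Bone morphogenetic proteins, ligands of the TGF-beta family, act through receptor kinases on SMAD proteins, which induce the ID genes and the inhibitory SMADs that damp the pathway. Growth factors act through the kinase ERK on immediate early genes, which are transcribed before any new protein is made, and on a later set of ETS factors and feedback inhibitors. The SREBP factors turn on sterol and fatty acid genes when membrane cholesterol is low.

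In each line number 1 had the fewest reads, 17919298 against 23284592 and 18379482 in Y483E and 17204498 against 17835265 and 20274593 in Y483F. It also had the fewest genes with a read, 23760 and 23549 against 23846 to 25120 in the other 4 libraries. Neither value passed an exact permutation test within lines (two-sided p = 0.222 for both, and 9 arrangements cannot give a p under 0.05). Transcripts lowest in GC (23.1% to 40.9%) had a median log2 difference, number 1 minus 4 and 5, of 0.05, and those highest in GC (58.2% to 83.9%) one of -0.05. The tilt was larger in Y483F (0.08 to -0.07) than in Y483E (0.02 to -0.01), and its part in the differences between genes was not tested beyond the corrected values given below. Of 11 HEK293 markers 8 passed the filter, led by IRS4 at 152 to 173 FPKM, while PAX2, LHX1 and NEFM were below it. Their summed level was 410 and 408 FPKM in number 1 and 420 to 446 in the other libraries. Of 23 markers of fibroblasts, blood, hepatocytes, surface epithelium and endothelium, EPCAM (41.7 to 47.1 FPKM) and HBA1 passed the filter, and PTPRC, CD3E, HBB, COL1A2, SERPINA1 and KRT14 were at 0 in every library. In bulk RNA fewer cells of a type and less RNA per cell cannot be told apart.

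For some genes the libraries numbered 1 were nearer to 4 and 5 of the other line. Among protein-coding genes that differed at least 2-fold between the lines in numbers 4 and 5 (on the log2(FPKM + 1) scale), there were 17. This set was picked with the values in view, for being extreme in 4 and 5. In 0 of them were both number 1 libraries nearer to numbers 4 and 5 of their own line, and in 5 both were nearer to the other line. In 9 the Y483E library alone, and in 3 the Y483F library alone, was nearer to its own line. Over all 91 genes tested with such a difference, both were nearer to their own line in 20 and to the other in 16. At 1.5-fold the counts were 61 and 61 of 363 genes, and 8 and 13 of 94 protein-coding genes. ABCA12 and CTSZ, also chosen after their values were seen, kept to the labels. ABCA12, a lipid transporter below the filter, had 5 reads in number 1 of Y483E and 3 and 5 in its other libraries, against 56 in number 1 of Y483F and 103 and 107 in the others. CTSZ, a lysosomal protease, was at 12.7, 13.5 and 13.98 FPKM in Y483E and 23.6, 20.1 and 19.7 FPKM in Y483F. TNS2 itself was at 0.753 FPKM in number 1 of Y483E against 1.04 and 1.05, and at 1.07 in number 1 of Y483F against 1.16 in both others (log2 difference -0.14 ± 0.08 (SE), limma adjusted p = 0.406). Number 1 was lowest within each line, but the ranges of the groups overlapped. TNS2 was near the filter, at a mean of 1.04 FPKM, with 109 to 197 reads per library. Values per gene do not separate the introduced form from the cells' own TNS2, and the source of these reads was not tested.

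limma, fitted on log2(FPKM + 1) with the line as a term, called 0 of the 12833 genes at a Benjamini-Hochberg adjusted p of 0.05 (percent called 0), with a lowest adjusted p of 0.0878 and 2410 genes at an unadjusted p under 0.05. Limited to protein-coding genes, it called 25 higher (0.229%) and 46 lower (0.421%) in number 1 among 10929. edgeR's quasi-likelihood test on the reads recovered from the FPKM values called 231 of 16491 genes (1.4%), with 81 higher (0.491%) and 150 lower (0.91%), and DESeq2 called 255. Single libraries moved the edgeR count: it was 13, 20 and 76 without Y483E replicate 2, Y483F replicate 3 or Y483F replicate 2, and 365, 562 and 1486 without Y483E replicate 3, Y483F replicate 1 or Y483E replicate 1. Of the genes tested by limma, 2036 (15.9%) had both number 1 libraries above the other 4 and 1255 (9.78%) had both below. The genes named below for the largest steps were chosen from the protein-coding ones among these. Their lack of overlap was therefore fixed by the choice. The estimate was above 0 for 6846 genes (53.3%) and below 0 for 5987 (46.7%). Gene names followed by "called" below refer to the edgeR test, and log2 differences are limma estimates of number 1 minus 4 and 5 with their standard errors unless stated.

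Across the 12833 genes, the difference in Y483E and the difference in Y483F, which share no library, had the same sign for 57.8% of genes (Pearson r = 0.06 and Spearman rho = 0.17 across genes, which are not independent replicates). Among protein-coding genes the share was 59.0% (r = 0.17). On the log2(FPKM + 1) scale, a difference of at least 1.5-fold in both lines was seen for 69 genes. Of these 3 were higher in both, 25 lower in both and 41 went in opposite directions. Only 10 of the 69 are protein-coding, of which 2 were higher in both, 1 was lower in both and 7 went in opposite directions. The added 1 reduces ratios at low FPKM, so these counts leave out some genes. DNAH17 and SHC2 differed by -0.58 in Y483E on this scale and were not counted. Their FPKM values differed by more than 1.5-fold in both lines.

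**Figure D1:**
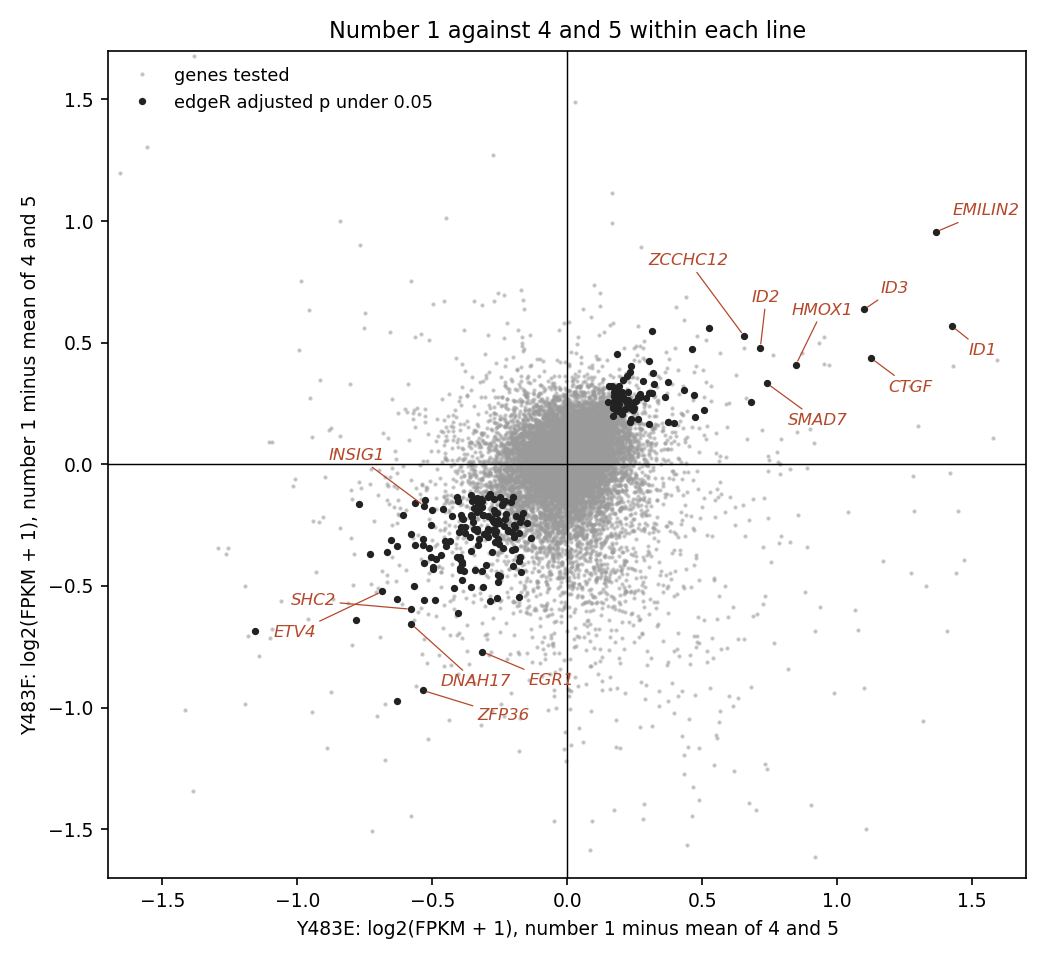
Log2(FPKM + 1) difference of number 1 from the mean of 4 and 5, in Y483E (horizontal axis) and Y483F (vertical axis), for genes tested; 24 genes beyond ±1.7 are not drawn. Dark points are genes called by edgeR, all in the upper right or lower left; the test itself favours such genes, and most grey points are near 0 or off the diagonal.

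The clearest group higher in number 1 was that of ID and inhibitory SMAD transcripts. The ID proteins bind basic helix-loop-helix factors and keep them from DNA. ID1 (chr20:31605283-31606515) was at 21.4 FPKM in number 1 of Y483E against 7.34 and 7.31, and at 19.7 FPKM in number 1 of Y483F against 13.6 and 12.3. Both number 1 libraries lay above all others, and the estimated log2 difference was 1.00 ± 0.18 (limma adjusted p = 0.119, edgeR adjusted p = 0.0170, range over alternatives 1.57e-06 to 0.817). ID3 (chr1:23557918-23559794) was at 47.2 FPKM against 22.2 and 20.7 in Y483E, and at 45.1 FPKM against 28.5 and 28.8 in Y483F. The ranges did not overlap (0.87 ± 0.10, limma adjusted p = 0.0990, edgeR adjusted p = 0.00162, range 5.52e-15 to 0.770). ID2 was at 25.6 FPKM against 14.4 and 16.1 in Y483E and at 25.2 FPKM against 18.6 and 17.1 in Y483F (0.60 ± 0.08, called). Its opposite-strand neighbour ID2-AS1 can share reads with it, since it is not known whether the libraries kept the strand. ID4 had a smaller difference, 56.2 FPKM against 47.8 and 49.3 in Y483E and 51.8 FPKM against 45.5 and 46.1 in Y483F, with no overlap (0.19 ± 0.03, edgeR adjusted p = 0.0574, range 0.0527 to 0.817). For ID1, ID2 and ID3 the libraries numbered 1 of the lines were close to each other, while those numbered 4 and 5 were lower in Y483E than in Y483F. The step differed between the lines for ID1 and ID3 by edgeR's interaction test (edgeR adjusted p = 0.00958 and 0.0184) and not by limma's (adjusted p = 0.121 and 0.167), and for ID2 neither test called a difference (edgeR adjusted p = 0.352, limma adjusted p = 0.396).

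SMAD6 and SMAD7 block receptor-activated SMADs. SMAD6 was at 5.08 FPKM in number 1 of Y483E against 2.75 and 2.82, and at 5.27 FPKM in number 1 of Y483F against 4.38 and 4.13 (0.47 ± 0.10, called). SMAD7 was at 11.7 FPKM against 6.81 and 6.404, and at 9.90 FPKM against 7.44 and 7.87 (0.54 ± 0.10, called). In neither gene did the groups overlap, and in both the step was larger in Y483E (0.68 and 0.74) than in Y483F (0.25 and 0.33). For this contrast between the lines, edgeR's interaction test called SMAD6 (edgeR quasi-likelihood adjusted p = 0.0279) and not SMAD7 (adjusted p = 0.0567), while limma's called neither (adjusted p = 0.237 and 0.228). SMAD9, a receptor-activated SMAD of the BMP branch, was at 7.61 FPKM against 6.27 and 6.10 and at 8.65 FPKM against 7.06 and 6.89 (0.27 ± 0.04, called). CTGF (CCN2), a secreted matricellular protein that both TGF-beta and YAP induce, was at 4.04 FPKM against 1.47 and 1.16 and at 2.12 FPKM against 1.21 and 1.41 (0.78 ± 0.17, called). The 2 libraries were again above the other 4, and the Y483E library was the higher of them.

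Of the 15 tested members of the TGF-beta target list, 8 (53.3%) had both number 1 libraries above the other 4, against 15.9% of all genes, and 0 had both below. edgeR called 6 higher (ID1, ID2, ID3, SMAD6, SMAD7 and CTGF) and 0 lower. Of the 12611 genes tested by limma and edgeR, edgeR called 77 higher. The list median was 0.14, against 0.01 for all genes tested, and lay between 0.11 and 0.20 over 24 alternatives. Of the members not called, ID4 and SKI (0.14 ± 0.04), a SMAD corepressor, also had both number 1 libraries above the others. Several had estimates near 0: PMEPA1 differed by -0.01, TGIF1 by -0.05, KLF10 by -0.03 and TGFB1 by -0.01, all with overlapping groups.

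The promoter of SMAD6 is shown because it holds the palindromic SMAD box GTCTAGAC. In the 250 bases before the RefSeq start on GRCh38.p14 (chr15:66701986-66702235, plus strand, box in capitals), the box began 12 bases before the start.
SMAD6: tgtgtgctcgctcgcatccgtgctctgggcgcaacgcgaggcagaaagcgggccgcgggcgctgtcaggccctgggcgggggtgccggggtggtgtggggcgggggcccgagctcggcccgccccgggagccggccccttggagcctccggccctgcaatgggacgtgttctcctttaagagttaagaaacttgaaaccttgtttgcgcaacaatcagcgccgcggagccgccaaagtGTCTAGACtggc
The box was found in 64 of 35116 RefSeq promoters of this length (0.182%), and among the 13 TGF-beta targets with an entry SMAD6 was the only gene that held it. The sequence GGCGCC, another SMAD-binding element, was in the promoters of 3 of the 13 (23.1%), against 16.4% of all promoters and 33.2% of tested genes. Both elements read the same on both strands. These matches are descriptions of sequence, and a promoter without a match says only that the letters are not in this window.

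EMILIN2, a secreted glycoprotein of elastic fibres and the first protein-coding gene by the naming rule, was at 6.05 FPKM in number 1 of Y483E against 1.81 and 1.66, and at 4.79 FPKM in number 1 of Y483F against 1.95 and 2.02. The groups were far apart (1.16 ± 0.10, limma adjusted p = 0.0878, edgeR adjusted p = 0.000277, range 2.92e-22 to 0.667). ZCCHC12, a zinc finger coactivator that acts in BMP signalling, was at 35.7 FPKM against 22.3 in both others, and at 32.2 FPKM against 21.5 and 22.6 (0.59 ± 0.04, edgeR adjusted p = 0.000852, range 1.33e-10 to 0.667). Its spread among the 4 other libraries was small beside the step. AMOTL2, an angiomotin that binds YAP, was at 4.11 FPKM against 2.53 and 2.57 and at 3.82 FPKM against 2.10 and 2.46 (0.54 ± 0.07, called). Of the 17 tested YAP and TAZ targets, 5 (29.4%) had both number 1 libraries above the others and 1 below, with a median of 0.05. Over all genes tested the shares were 15.9% above and 9.78% below. CYR61 (CCN1), a classical YAP target, was at 12.4 FPKM against 7.46 and 8.31 in Y483E and at 8.92 FPKM against 8.22 and 7.65 in Y483F (0.37 ± 0.11, not called).

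Some genes of redox metabolism, chosen after their values were seen, were also called. HMOX1, the haem-degrading oxygenase, was at 11.1 FPKM against 5.47 and 6.02 and at 8.08 FPKM against 5.76 and 5.93 (0.63 ± 0.10, called). GPX3, the secreted glutathione peroxidase, was at 8.504 FPKM against 5.76 and 6.02 and at 9.19 FPKM against 5.82 and 6.88 (0.47 ± 0.07, called). Both genes had number 1 above all other libraries in both lines. TXNRD1, thioredoxin reductase, and PRDX1, a peroxiredoxin, differed by 0.22 ± 0.03 and 0.23 ± 0.04, and both were called. Of 20 tested NRF2 targets 7 (35.0%) had both number 1 libraries above the others, against 15.9% of all genes, and 0 had both below. edgeR called 3 higher, against 77 of the 12611 genes tested by limma and edgeR. The list median of 0.04 was near that of all genes. Further called genes were CALR, the calcium-binding chaperone of the endoplasmic reticulum (0.27 ± 0.05), S100A10 (0.36 ± 0.05), the integrin subunit ITGAV (0.32 ± 0.07), the CDK inhibitor CDKN2C (0.28 ± 0.04) and the lysosomal gene GRN (0.25 ± 0.04). NOMO1 and NOMO2, near-identical copies between which reads can be split, were both called (0.33 ± 0.07 and 0.37 ± 0.08). Of the 12 protein-coding genes named for the largest step upward, METTL7B, C6orf52 and G0S2 were not called (edgeR adjusted p = 0.102, 0.238 and 0.267, ranges 0.0405 to 0.817, 0.112 to 0.817 and 0.152 to 0.817), and all 3 were below 4 FPKM.

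**Figure D2:**
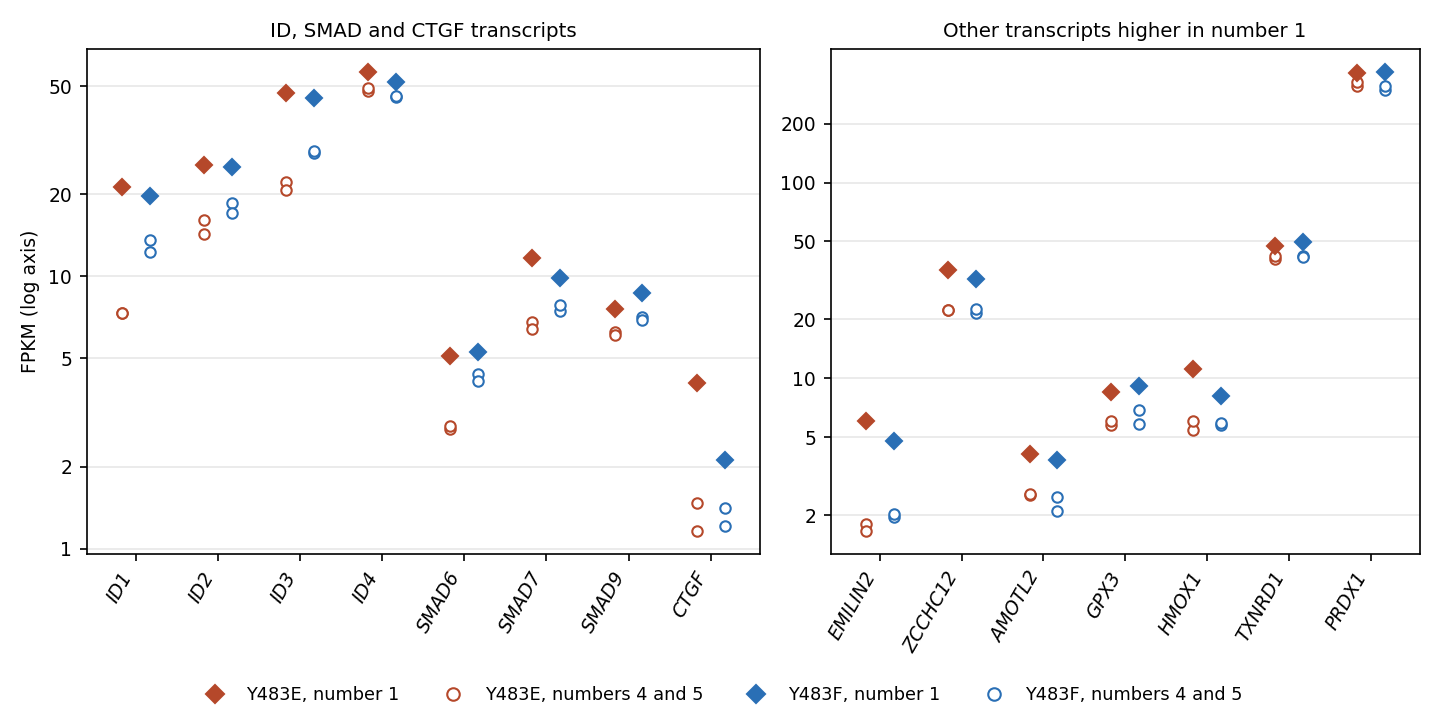
FPKM per library (log axis) of transcripts higher in number 1. Diamonds are the libraries numbered 1 and open circles those numbered 4 and 5, for Y483E (red) and Y483F (blue). In all 15 genes both diamonds are above all 4 circles, with the widest gap in EMILIN2. The naming rule required this of the genes named for the largest step, and most others were chosen with their values in view.

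Several immediate early genes were lower in number 1. ZFP36, which binds AU-rich elements and promotes decay of mRNA, was at 3.70 FPKM in number 1 of Y483E against 6.04 and 5.59, and at 3.40 FPKM in number 1 of Y483F against 7.52 and 7.24. The groups did not overlap (-0.73 ± 0.10, limma adjusted p = 0.119, edgeR adjusted p = 0.0128, range 0.000403 to 0.817). The zinc finger factor EGR1 (chr5:138465490-138469315) was at 5.17 FPKM against 6.70 and 6.64, and at 4.06 FPKM against 7.37 and 7.89 (-0.54 ± 0.11, edgeR adjusted p = 0.0307, range 0.00315 to 0.817). JUN, a subunit of the AP-1 factor, was at 112 FPKM against 140 and 145 and at 101 FPKM against 115 and 114 (-0.26 ± 0.05, called). Again both number 1 libraries were below every other library, for EGR1 with the wider gap in Y483F and for JUN in Y483E. ATF3 (-0.26 ± 0.05) and the AP-1 subunit FOSB (-0.36 ± 0.09), which was near 1 FPKM, were also called. FOS, at 0.794 FPKM against 1.31 and 1.16 and at 0.685 FPKM against 1.36 and 1.97, had non-overlapping groups but was not called (edgeR adjusted p = 0.0692, range 0.0692 to 0.817).

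Of the 18 tested immediate early genes, 12 (66.7%) had both number 1 libraries below the other 4, against 9.78% of all genes, and 1 (CYR61) had both above. edgeR called 5 lower (ZFP36, EGR1, JUN, ATF3 and FOSB) and 0 higher. Of the 12611 genes tested by limma and edgeR, edgeR called 147 lower. The list median was -0.22, with -0.24 in Y483E and -0.20 in Y483F, and lay between -0.25 and -0.17 over 24 alternatives. The value nearest to 0, -0.17, came with the correction for gene length and GC content. MYC (33.5 FPKM against 33.3 and 33.8 in Y483E, and 40.7 FPKM against 36.8 and 36.6 in Y483F) was level in Y483E. DUSP1 and KLF4 were among the members with overlapping groups. Another of these members went in opposite directions, with a log2 difference of 0.33 in Y483E and -0.59 in Y483F.

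The EGR1 promoter is shown because it holds CArG boxes, the elements bound by serum response factor. In the 250 bases before the RefSeq start on GRCh38.p14 (chr5:138465229-138465478, plus strand, boxes in capitals), the boxes began 105 and 83 bases before the start.
EGR1: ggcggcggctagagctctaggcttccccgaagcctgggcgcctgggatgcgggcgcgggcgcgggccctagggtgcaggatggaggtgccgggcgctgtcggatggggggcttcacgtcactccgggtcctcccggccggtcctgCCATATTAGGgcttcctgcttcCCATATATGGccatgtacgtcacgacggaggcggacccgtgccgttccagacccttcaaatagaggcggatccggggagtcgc
A CArG box on either strand was in 407 of 35116 promoters (1.16%), and EGR1 was the only gene to hold one among the 14 immediate early genes with an entry. ZFP36, the member with the largest step, had none in this window.

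Several genes of the ERK feedback list were also lower, as were DUSP8 and SHC2, which are outside it. ETV4, an ETS factor induced by ERK, was at 3.86 FPKM in number 1 of Y483E against 7.13 and 6.51, and at 4.14 FPKM in number 1 of Y483F against 6.36 and 6.42 (-0.60 ± 0.06, limma adjusted p = 0.0878, edgeR adjusted p = 0.00412, range 2.83e-05 to 0.770). Its relative ETV5 (-0.30 ± 0.06) and SPRY4, a feedback inhibitor of receptor tyrosine kinase signalling (-0.36 ± 0.08), were called too. For these 3 genes no number 1 library reached any other. ETV4 overlaps DHX8 on the opposite strand. DUSP8, a phosphatase of MAP kinases outside that list, was at 5.61 FPKM against 8.67 and 7.89 and at 4.40 FPKM against 6.78 and 7.13 (-0.52 ± 0.06, called). SHC2, an adaptor of receptor tyrosine kinases, was at 3.18 FPKM against 5.70 and 4.81 and at 2.56 FPKM against 4.59 and 4.18 (-0.59 ± 0.08, called). Of the 12 tested members of the ERK feedback list, 6 (50%) had both number 1 libraries below the others, against 9.78% of all genes. In 1 (CCND1, 0.08 ± 0.03) both were above. edgeR called 3 lower, against 147 of the 12611 genes tested by limma and edgeR. The list median was -0.14, with -0.18 in Y483E and -0.05 in Y483F. DUSP6, the best known of the phosphatases that act on ERK, differed by -0.13 ± 0.08 and was not called, and SPRY2, SPRED1, DUSP4, DUSP5 and ETV1 had overlapping groups.

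Several sterol and fatty acid genes were lower in number 1, while other members of their lists were not. SREBF1, which encodes the SREBP of fatty acid genes, was at 10.1 FPKM in number 1 of Y483E against 14.6 and 14.3, and at 9.37 FPKM in number 1 of Y483F against 12.6 in both others (-0.44 ± 0.04, edgeR adjusted p = 0.000852, range 4.44e-09 to 0.817). The fatty acid desaturase FADS2 was at 8.83 FPKM against 14.2 and 14.3 and at 9.03 FPKM against 11.8 and 11.5 (-0.48 ± 0.07, called). In both the groups were apart. SREBF1 overlaps RAI1 on the opposite strand, and FADS2 overlaps FADS1. SREBF2, which encodes the SREBP of sterol genes (-0.27 ± 0.07), INSIG1, which holds SREBP in the endoplasmic reticulum (-0.35 ± 0.09), and the mevalonate pathway enzymes IDI1 (-0.26 ± 0.04) and HMGCS1 (-0.20 ± 0.05) were called. HMGCS1 had overlapping groups, since the Y483E library at 33.7 FPKM reached the lower of the Y483F libraries numbered 4 and 5 at 33.6.

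Of the 24 tested members of the cholesterol list, 12 (50%) had both number 1 libraries below the others and 4 (16.7%) had both above. Over all genes tested the shares were 9.78% below and 15.9% above, so the list's share above was near that of all genes. edgeR called 5 lower and 0 higher, against 147 lower and 77 higher of the 12611 genes tested by limma and edgeR. The list median was -0.13 (-0.18 in Y483E, -0.11 in Y483F, between -0.18 and -0.11 over 24 alternatives). On the higher side, SC5D, a desaturase late in the pathway, differed by 0.17 ± 0.05 and was not called. Of 17 tested fatty acid synthesis genes 5 (29.4%) were on the lower side and 1 on the higher, edgeR called 2 lower, and the list median of -0.05 combined -0.11 in Y483E with 0.02 in Y483F.

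SREBF2 is shown as the only sterol gene with the element TCACNCCAC, the sterol regulatory element, among 18 cholesterol genes with an entry. It began 133 bases before the RefSeq start on GRCh38.p14 (chr22:41832855-41833104, plus strand, element in capitals).
SREBF2: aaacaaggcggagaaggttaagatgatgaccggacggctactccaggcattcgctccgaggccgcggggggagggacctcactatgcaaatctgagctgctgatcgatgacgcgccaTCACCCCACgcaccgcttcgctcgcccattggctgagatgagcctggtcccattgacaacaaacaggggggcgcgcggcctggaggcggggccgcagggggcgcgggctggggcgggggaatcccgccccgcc
On either strand the element was in 310 of 35116 promoters (0.883%).

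**Figure D3:**
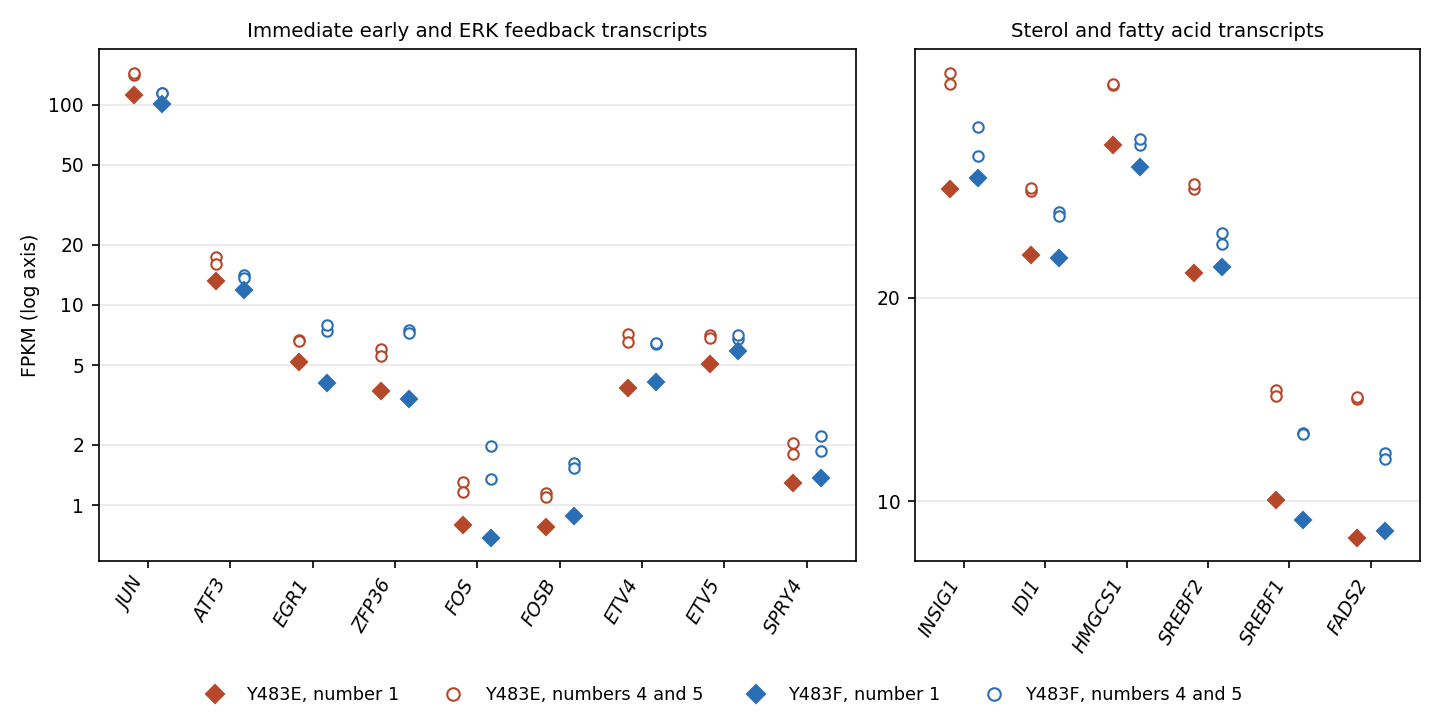
FPKM per library (log axis) of transcripts lower in number 1, drawn as diamonds (number 1) and open circles (4 and 5) for Y483E (red) and Y483F (blue). Both diamonds are below all 4 circles in every gene shown except HMGCS1, where the Y483E diamond at 33.7 reaches a Y483F circle at 33.6. The naming rule required this of the genes named for the largest step, and most others were chosen with their values in view.

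Among the other genes lower in number 1, CDKN1A, the p53-induced CDK inhibitor p21, was at 17.03 FPKM in Y483E against 25.0 and 23.9, and at 15.1 FPKM in Y483F against 20.7 and 20.6 (-0.46 ± 0.04, edgeR adjusted p = 0.00226, range 1.35e-06 to 0.770). Both number 1 libraries were well below the rest. Of 21 tested p53 targets 7 (33.3%) were on the lower side and 0 on the higher, against 9.78% and 15.9% of all genes. CDKN1A alone was called. DNAH17, a dynein heavy chain of cilia and flagella, was at 1.03 FPKM against 2.06 and 2.01 and at 0.765 FPKM against 1.76 and 1.81 (-0.62 ± 0.07, edgeR adjusted p = 0.000277, range 5.52e-15 to 0.817). Both number 1 libraries were below the others, and 3 genes overlap it, PGS1 among them. MEX3B, an RNA-binding protein, and FOXN4, a forkhead factor, differed by -0.53 ± 0.05 and -0.54 ± 0.05 and were called. LDHB, a lactate dehydrogenase subunit, was at 16.6 FPKM against 25.3 and 23.6 and at 22.4 FPKM against 27.4 and 28.3 (-0.42 ± 0.06, called). The groups were apart here too. PGLYRP1, KRTDAP, CAMK2N2, ATP5ME and CGA completed the 12 largest downward steps and were not called, and PGLYRP1, KRTDAP and CGA were near 1 FPKM.

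Smaller differences were spread over several lists. Over all genes tested, 9.78% were on the lower side and 15.9% on the higher. edgeR called 147 lower among the 12611 genes tested by limma and edgeR. Of 24 matrix and basement membrane genes 7 (29.2%) were on the lower side and 1 on the higher, with VCAN (-0.28 ± 0.05) and TNC (-0.47 ± 0.14, mostly in Y483E) called and a median of -0.08. Of 10 neuronal genes that HEK293 cells express, 4 (40.0%) were on the lower side and 0 on the higher, and ENO2 (-0.24 ± 0.03) was called; the median of -0.12 was -0.02 without Y483E replicate 1. Kidney transcription factors had 6 of 13 (46.2%) on the lower side and 1, WT1, on the higher, with 0 called by limma or edgeR (5 at an unadjusted limma p under 0.05). Notch targets had 2 of 13 (15.4%) on the lower side, near the 9.78% of all genes, with HES4 called (-0.23 ± 0.04). snoRNA host genes had 5 of 24 (20.8%) on the lower side, ZFAS1 called (-0.42 ± 0.06) and a median of -0.14. Their median was -0.06 among protein-coding genes only. Noncoding transcripts were lower more widely, with medians of -0.09 over antisense genes and -0.07 over lincRNA genes tested, against 0.02 over protein-coding genes. Nuclear long noncoding RNAs (9 tested, median -0.09) had 0 members called by edgeR; MALAT1 was at 2.57 FPKM against 5.91 and 4.90 in Y483F and at 3.20 against 3.80 and 2.81 in Y483E. Chromosome 19, the human autosome with the highest gene density and a high GC content, had 140 of 920 genes (15.2%) on the lower side and 75 (8.15%) on the higher. Without Y483E replicate 1 the medians nearest to 0 were -0.01 for matrix genes, -0.06 for kidney factors and -0.05 for the ERK feedback list, and without Y483F replicate 1 that of Notch targets was -0.01.

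Cytosolic ribosomal protein genes had 25 of 79 (31.6%) on the lower side, 0 on the higher and 8 called lower. Over all genes tested 9.78% were on the lower side, and edgeR called 147 of 12611 lower. RPS27 was at 558 FPKM against 714 and 695 and at 597 FPKM against 689 and 679 (-0.27 ± 0.05). RPS29 was at 16.7 FPKM against 23.2 and 20.3 and at 17.8 FPKM against 22.6 and 21.6 (-0.33 ± 0.06). RPS2 differed by 0.00 ± 0.05. The list median of -0.07 lay in Y483E alone, where it was -0.16, against 0.00 in Y483F, and it was 0.00 without Y483E replicate 1. These genes have many processed copies in the genome, between which reads can be split.

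Several housekeeping lists were slightly higher in number 1, with no member called higher by edgeR in any of the 6 named here. Over all genes tested, 15.9% had both number 1 libraries above the others and 9.78% both below. edgeR called 77 of 12611 higher. Of 14 subunits of the TCP1 chaperonin and prefoldin, which fold actin and tubulin, 10 (71.4%) had both number 1 libraries above the others and 0 below, with a median of 0.09. CCT2, for example, was at 135 FPKM against 129 in both others and at 144 FPKM against 122 and 126 (0.14 ± 0.04). Ribosome biogenesis genes had 15 of 29 (51.7%) on the higher side and 0 on the lower (median 0.09). Mitochondrial ribosomal proteins had 31 of 73 (42.5%) and 1 (median 0.09), cytosolic heat shock chaperones 11 of 19 (57.9%) and 2 (median 0.07), and the proteasome 14 of 32 (43.8%) and 1 (median 0.06). Glycolysis and lactate transport had 12 of 22 (54.5%) on the higher side, 3 on the lower (LDHB, ENO2 and ENO3) and a median of 0.09. LDHA, the other main lactate dehydrogenase subunit, was at 133 FPKM against 118 and 121 and at 138 FPKM against 119 and 122 (0.17 ± 0.03, edgeR adjusted p = 0.0771, range 0.00712 to 0.817), opposite in direction to LDHB. GAPDH was at 753 FPKM against 739 and 781 and at 781 FPKM against 670 and 693 (0.09 ± 0.06, limma adjusted p = 0.465), with overlapping groups. The medians of these 6 lists, from 0.06 to 0.09, were below the 0.14 of the TGF-beta target list.

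**Figure D4:**
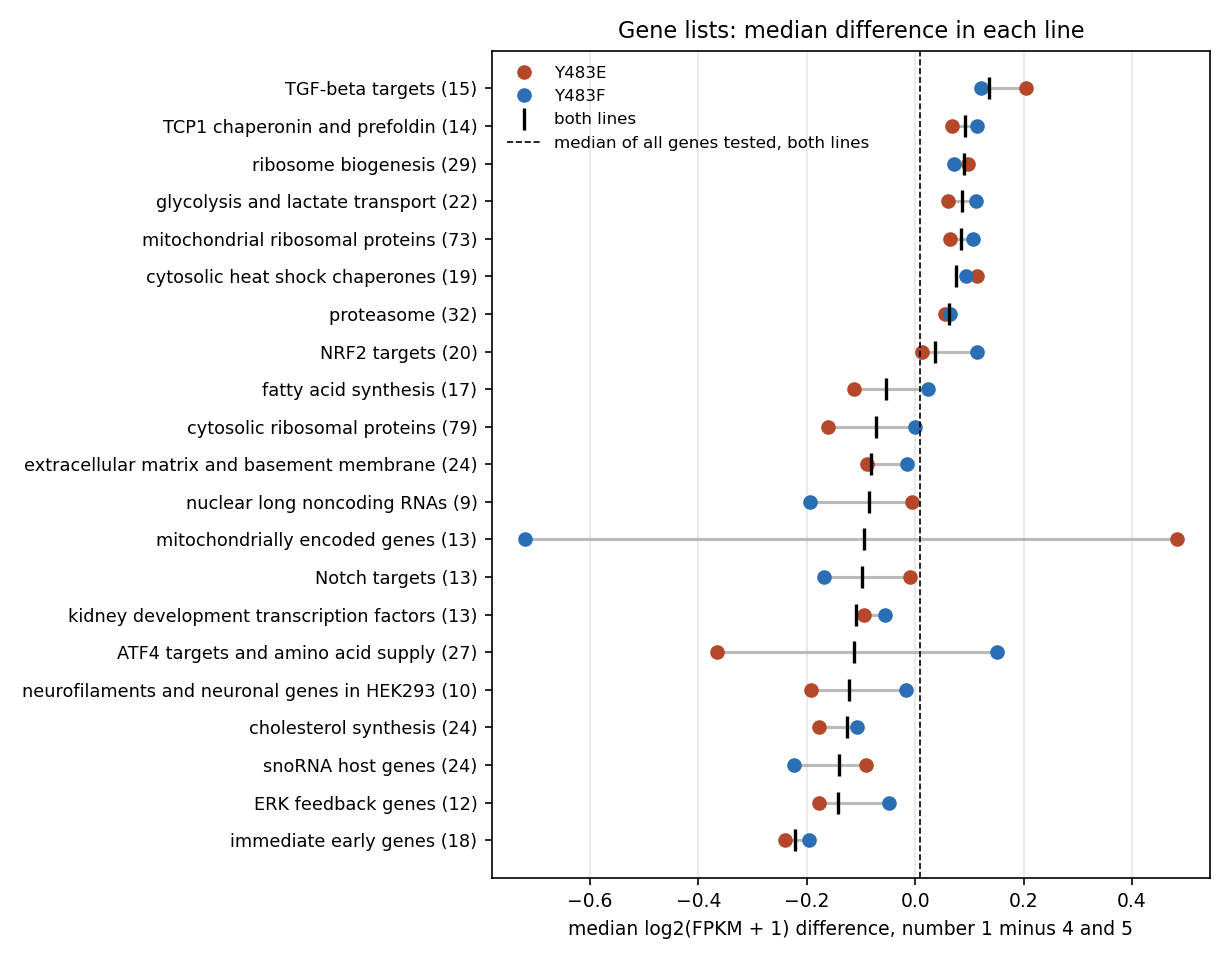
Median log2(FPKM + 1) difference of number 1 from 4 and 5 for 21 gene lists (tested members in brackets), in Y483E (red), Y483F (blue) and both lines (black bar); the dashed line is the median of all genes tested, 0.01. TGF-beta targets and immediate early genes are among the lists apart from it in both lines. Mitochondrially encoded genes, ATF4 targets and fatty acid synthesis genes have a point on either side.

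The limma interaction of line and number called 8 genes (0.0623%), of which PSAT1, PCK2 and SMN1 are protein-coding, with 2039 genes at an unadjusted p under 0.05. edgeR called 347 of 17280 (2.01%), among them these 3. The lone libraries numbered 1 are assumed here to vary like the others. PSAT1, an enzyme of serine synthesis, was at 121 FPKM in number 1 of Y483E against 156 and 160, and at 132 FPKM in number 1 of Y483F against 100 and 102. PCK2, the mitochondrial PEP carboxykinase, was at 6.01 FPKM against 11.1 and 11.4 in Y483E and at 7.23 FPKM against 5.57 and 5.54 in Y483F. In both genes number 1 was the lowest library of Y483E and the highest of Y483F. They belong to the targets of ATF4, the factor that induces amino acid supply under nutrient stress. The 27 tested members of that list had a median of -0.37 in Y483E and 0.15 in Y483F. CHAC1, at 3.83 FPKM against 8.11 and 7.70 in Y483E and 3.63 FPKM against 3.08 and 3.32 in Y483F, is an example.

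SMN1, which encodes the survival motor neuron protein, had the widest contrast. It was at 7.08 FPKM in number 1 of Y483E against 33.2 and 29.4, and at 26.2 FPKM in number 1 of Y483F against 8.11 and 8.19. Number 1 of Y483E was thus near numbers 4 and 5 of Y483F, and number 1 of Y483F near numbers 4 and 5 of Y483E. SMN2, a near-identical copy that can share its reads, stayed between 7.12 and 8.998 FPKM, and the reads of both copies together were 850 against 2895 and 2079 in Y483E and 1855 against 878 and 1023 in Y483F. The 13 mitochondrially encoded genes also went in opposite directions, with a median of 0.48 in Y483E and -0.72 in Y483F, and limma and edgeR called 0 of them for number (0 at an unadjusted limma p under 0.05). The share of all reads from the mitochondrial genome was taken over all its genes, not these 13 alone. It was 2.11% in number 1 of Y483E against 2.15% and 1.23%, and 2.05% in number 1 of Y483F against 3.27% and 3.11% (exact permutation p = 0.667, two-sided). Here it was a single library, Y483E replicate 3, that set the Y483E difference, since replicates 1 and 2 were alike.

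**Figure D5:**
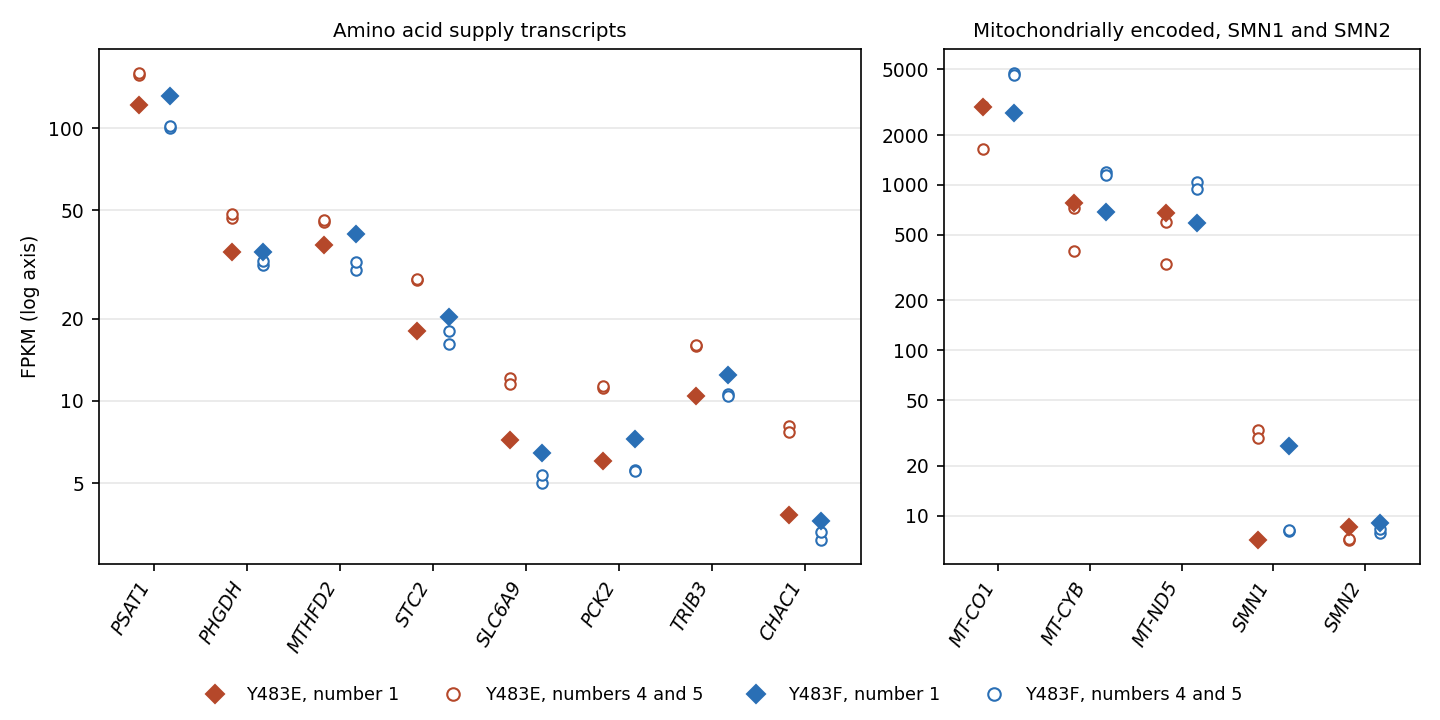
FPKM per library (log axis) of ATF4 targets, mitochondrially encoded genes, SMN1 and SMN2, with diamonds for number 1 and open circles for 4 and 5, in Y483E (red) and Y483F (blue). Number 1 is lowest in Y483E and highest in Y483F for the ATF4 targets and SMN1, and the number 1 libraries of the lines are close to each other for PHGDH, CHAC1 and SLC6A9.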

How the data were processed

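RNA selected with poly-T beads was sequenced from 6 libraries. As tools, the submitters' processing notes name DESeq, DESeq2, featureCounts 1.5.0-p3, HISAT2 2.0.5 and StringTie 1.3.3b, without roles. A build was not named in the sources used. Of 58735 genes, 58690 had GENCODE 29 positions on GRCh38. The authors deposited FPKM values for every gene. For 1652 genes the deposited table also gives raw read counts, a size-factor-scaled signal, log2 fold changes and p-values, of which the deposited counts alone were used here, to recover reads. Multiplying FPKM by length and library total gave whole reads, within 0.01, for 100% of values.

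limma 3.58.1 (eBayes with trend) was fitted on log2(FPKM + 1), two-sided, with line and number, over all genes averaging at least 1 FPKM, and left 3 residual degrees of freedom. edgeR 4.0.16 and DESeq2 1.42.0 were run on the recovered reads. In simulated data for number 1 against 4 and 5 with 12833 genes, limma recovered 34 of 66 genes changed by 0.5 on the log2 scale and 60 of 67 changed by 1, and edgeR recovered 57 and 61; limma called 14 unchanged genes and edgeR 4. The simulation drew independent counts with a common dispersion for all genes and no shifts shared by the genes of a library. Its counts are therefore not error rates of the real comparison. The members, the 53 gene lists and the rules were chosen with earlier results of these data known. Lists are described by counts and medians. The named genes are TNS2, GAPDH, the 12 largest steps each way, the protein-coding genes called by the interaction and leading list members. No gene passed limma, so the 12 were protein-coding genes with both number 1 libraries outside the range of the others, ranked by the smaller within-line step. Other genes called by edgeR were named after their values were seen. The labels call the libraries biological replicates but do not say whether they are separate cultures. The p-values therefore measure the spread between these libraries, which may be technical. Some genes of the lists are not reported here by name, though list counts and medians include them.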

Additional observations from a re-analysis of the deposited data

Results flagged for a closer look

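The lines differed in how number 1 compared with 4 and 5, by the limma interaction test (adjusted p under 0.05), for 8 genes. The difference of Y483F minus that of Y483E was 0.76 on the log2(FPKM + 1) scale for PSAT1, 1.13 for PCK2 and 3.57 for SMN1. The other 5 are short noncoding genes (MT-TR, RNU6-722P, SNORA75, MIR6739 and MIR3178). The mean over ATF4 targets differed between the lines by 0.52 (-0.36 in Y483E and 0.16 in Y483F), with number 1 below both other libraries of Y483E and above both of Y483F, and this difference was not tested. The mean over mitochondrially encoded genes differed by -1.18 (0.49 in Y483E and -0.69 in Y483F), and this difference was not tested.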

How the results depend on the processing

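The limma count of 0 genes became 14 with a mean of at least 5 FPKM, 71 over protein-coding genes, 231 with edgeR and 255 with DESeq2, and was 0 to 22 with a library left out. With the replicate number as a block it was again 0 (2012 at an unadjusted p under 0.05), and the edgeR count of 231 became 36, all shared with the 231. Without a filter edgeR called 937, without the line term 7, and with a library left out 13 to 1486. The 8 genes of the limma interaction became 242 without a filter, 32 with at least 5 FPKM, 95 over protein-coding genes, 347 with edgeR, 113 with DESeq2, 1 when corrected for gene length, 1 when corrected for length and GC content, and 0 without the trend (1741 at an unadjusted p under 0.05). With a library left out they were 5 to 169. The edgeR settings and the GC correction were chosen after the data had been seen. SMN1 went from -0.21 to 1.57 without Y483E replicate 1 and to -1.997 without Y483F replicate 1. The cause in each case was not tested. Over 24 settings each, the 14 described lists gave 335 medians (nuclear long noncoding RNAs have none among protein-coding genes), of which 71 moved by more than the spread between replicates. The medians of ATF4 targets (0.15) and ribosomal proteins (0.00) turned positive without Y483E replicate 1, and that of mitochondrially encoded genes reached 0.48 without Y483F replicate 1. Number 1 had the fewest reads in each line, which limits genes near 1 FPKM.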
